A study of Mus musculus with 10 samples.

Results

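The 10 genes described here make and remodel fatty acids: Scd1, Scd2, Fasn, Acaca, Fads1, Fads2, Elovl1, Elovl5, Elovl6 and Srebf1. They were chosen by symbol, as lipogenic genes and genes of polyunsaturated fatty acid synthesis, and all 10 were found among the 24059 gene symbols of the count table. Whole-lung RNA was compared between 5 mice on a fish oil diet (FO) and 5 mice on a coconut oil diet (CO), the question being which lung genes differ with the kind of dietary fat. The labels give all 10 as female C57Bl/6 mice aged 14 weeks whose lungs had been rinsed with PBS, and each had eaten its diet for 8 weeks. Both diets were high in fat, with 19% fat and 0.2% cholesterol by weight, and no group on ordinary chow is among these samples, so every value sets one high-fat diet against the other. In FO the fat was 91% menhaden fish oil, a source of n-3 polyunsaturated fatty acids, and 9% corn oil. In CO, coconut oil gave saturated fat at 78% of the fat, olive oil gave 13% as monounsaturated fat, and corn oil made up the other 9%. These are the labelled compositions, and the study's own text in places gives another cholesterol content for FO and other fat shares for CO.

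Cells build saturated fatty acids from acetyl-CoA. Acetyl-CoA carboxylase (Acaca) makes malonyl-CoA and fatty acid synthase (Fasn) joins these units into palmitate. Elongases of the ELOVL family lengthen fatty acids, stearoyl-CoA desaturases (Scd1, Scd2) place the first double bond and so make oleate and palmitoleate, and the desaturases Fads1 and Fads2 add further double bonds to the essential n-6 and n-3 fatty acids. SREBP-1, encoded by Srebf1, switches many of these genes on, and dietary polyunsaturated fatty acids are known to hold it down in liver. In the lung, alveolar type 2 cells use newly made fatty acids for the lipids of surfactant.

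Reads on genes numbered from 229766 to 1124963 per mouse, but Rn45s, the precursor of ribosomal RNA, took from 21.8% to 87.0% of them. That left from 45177 to 473254 counts per mouse for all other genes. Their median was 235781 in FO and 136211 in CO, so raw counts of the 2 diets do not compare directly. Counts are compared below as CPM, counts scaled to library size with TMM, a correction for differences in composition between libraries. A mouse with fewer than 3 counts of a gene was taken as under the floor. The libraries of FO mouse 2 and CO mouse 5 stood apart, with Malat1 at 8.53% and 6.15% of the counts outside Rn45s against 0.135% to 1.05% in the other 8 mice, and calls that changed without them are given both ways. Of 10 alveolar type 2 cell markers all had counts, and their summed level reached from 1730 to 3800 CPM in FO and from 1090 to 3090 CPM in CO. In whole lung, fewer cells of a type and less RNA per cell cannot be told apart.

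Both stearoyl-CoA desaturases had lower mean levels in FO than in CO, and neither passed the test. Among these genes Scd2 and Scd1 had the highest levels per length of transcript. They lie near each other on chromosome 19 (GRCm38, the build that mm10 names, GENCODE annotation): Scd1 from 44394455 to 44407879 on the minus strand and Scd2 from 44293674 to 44306864 on the plus strand, with the microRNA gene Mir5114 inside Scd2. Their coding sequences are alike at 962 of 1065 aligned bases (90.3%), so the most similar 150 bases are shown to mark where a read may not tell them apart. The window is chr19:44401737-44401886 on the minus strand in Scd1 (bases 442 to 591 of the coding sequence) and chr19:44299621-44299770 on the plus strand in Scd2 (bases 451 to 600), and the capital marks the 1 base that differs.
Scd1: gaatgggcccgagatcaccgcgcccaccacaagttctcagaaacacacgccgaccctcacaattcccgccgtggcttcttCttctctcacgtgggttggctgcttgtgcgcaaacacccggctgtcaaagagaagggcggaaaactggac
Scd2: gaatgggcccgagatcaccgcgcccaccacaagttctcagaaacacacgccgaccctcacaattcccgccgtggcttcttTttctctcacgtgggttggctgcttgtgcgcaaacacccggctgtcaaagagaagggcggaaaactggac
Over the whole transcripts the overlap was small. Of the 4841 windows of 50 bases in Scd1, 145 (3.0%) occur unchanged in Scd2, and the same 145 windows are 2.68% of the 5406 in Scd2.

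Scd1 makes oleate from stearate in most tissues. Its level was 62.1, 108, 77.4, 154 and 91.7 CPM in FO mice 1 to 5 and 86.4, 181, 140, 117 and 206 CPM in CO mice 1 to 5. The groups overlapped, since FO mouse 4 lay above 3 of the 5 CO mice and CO mouse 1 lay below 3 of the 5 FO mice. The means were 98.7 ± 35.4 CPM in FO and 146 ± 48.2 CPM in CO (SD, n = 5 each), and the fitted ratio of FO to CO was 0.68, with a 95% interval from 0.449 to 1.03. The difference did not pass the test (log2 fold change -0.56 ± 0.29 SE, p = 0.0655, adjusted p = 0.998, edgeR's quasi-likelihood test with Benjamini-Hochberg adjustment, exact two-sided permutation p = 0.119). The FO and CO values overlapped in each of the 10 genes described here, as they did in all but 0.41% of the 2438 genes tested.

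Scd2, the form best known from brain and from young animals, read 159, 455, 187, 216 and 134 CPM in FO mice 1 to 5 and 166, 362, 337, 312 and 500 CPM in CO mice 1 to 5. In FO, 4 mice lay at or under 216 CPM and mouse 2 lay far above them, while in CO 4 mice lay at or over 312 CPM and mouse 1 lay below, so the groups overlapped through these 2 animals. The means were 230 ± 129 CPM in FO and 336 ± 119 CPM in CO (SD, n = 5 each), a fitted ratio of 0.69 with a 95% interval from 0.432 to 1.10. Over all 10 mice the difference did not pass the test (log2 fold change -0.54 ± 0.32 SE, p = 0.112, adjusted p = 0.998 in edgeR, exact two-sided permutation p = 0.19).

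Whether Scd2 passed depended on single libraries. Without FO mouse 2 its log2 fold change was -0.97 (edgeR p = 0.00174, adjusted p = 0.67, exact permutation p = 0.0476), in a fit where 7.26% of all 2120 genes tested were called at an unadjusted p under 0.05. Without both FO mouse 2 and CO mouse 5 it was -0.77 (edgeR p = 0.00553, adjusted p = 0.999, exact permutation p = 0.0857), beside 3.93% of 1830 genes called. Without CO mouse 5 alone it was -0.34 (edgeR p = 0.306, exact permutation p = 0.365), so leaving out either of the 2 libraries that stood apart moved the value in opposite directions.

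Scd1 also depended on single libraries, in part those of the same animals and in part those of others. Without FO mouse 4 its log2 fold change was -0.82 (edgeR p = 0.0118, adjusted p = 1.0, exact permutation p = 0.0476), with 2.64% of 2348 genes called. Without CO mouse 1 it was -0.69 (edgeR p = 0.0243, adjusted p = 0.999, exact permutation p = 0.0635), with 3.25% of 3202 genes called, and in the same fit Scd2 also passed 0.05, at -0.72 (edgeR p = 0.0295, exact permutation p = 0.0794). Leaving out CO mouse 4 gave -0.63 for Scd1 (edgeR p = 0.0462, exact permutation p = 0.127), with 2.9% of 2896 genes called. It was smallest without CO mouse 5, at -0.38 (edgeR p = 0.21, exact permutation p = 0.238), and was -0.40 without both FO mouse 2 and CO mouse 5. With limma-voom and sample weights both genes had an unadjusted p under 0.05, Scd1 at -0.63 and Scd2 at -0.75, both with a limma-voom adjusted p of 0.925, where 4.8% of 2438 genes were called. In each of the 21 alternatives shown in the plot of settings, the estimate of both genes stayed below 0.

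**Figure D1:**
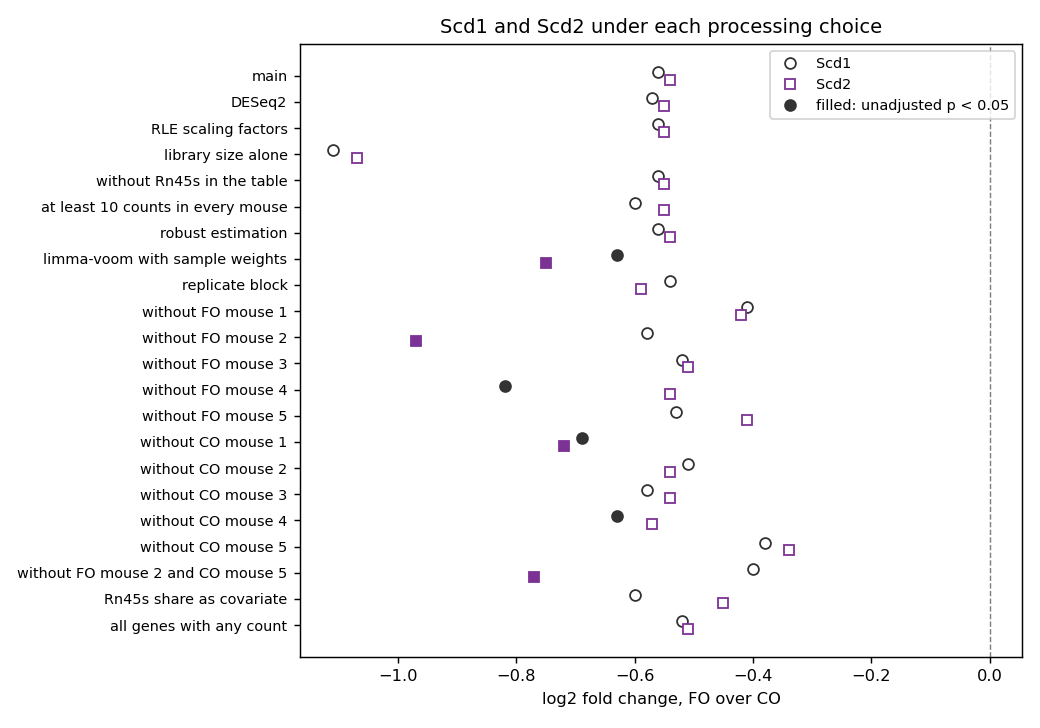
Log2 fold change of Scd1 (circles) and Scd2 (squares), FO over CO, on the horizontal axis, under each processing choice listed on the vertical axis; filled symbols have an unadjusted p under 0.05. All points lie below 0, from -1.11 to -0.38 for Scd1 and from -1.07 to -0.34 for Scd2, and with library size alone the median of all genes also moved, to -0.55.

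The balance between Scd1 and Scd2 varied among mice, and no difference between the diets was detected. The share of Scd1 in the counts of both genes was 28.1%, 19.2%, 29.3%, 41.7% and 40.6% in FO mice 1 to 5 and 34.2%, 33.3%, 29.4%, 27.2% and 29.2% in CO mice 1 to 5. FO mouse 2 was the lowest (exact Clopper-Pearson 95% interval 16.4% to 22.2%, counting error only) and FO mouse 4 the highest (36% to 47.5%), and these intervals do not meet. The means, 31.8 ± 9.41% in FO and 30.7 ± 2.98% in CO (SD, n = 5 each), differed by 1.10 percentage points, which is less than the spread between mice (exact two-sided permutation p = 0.857).

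**Figure D2:**
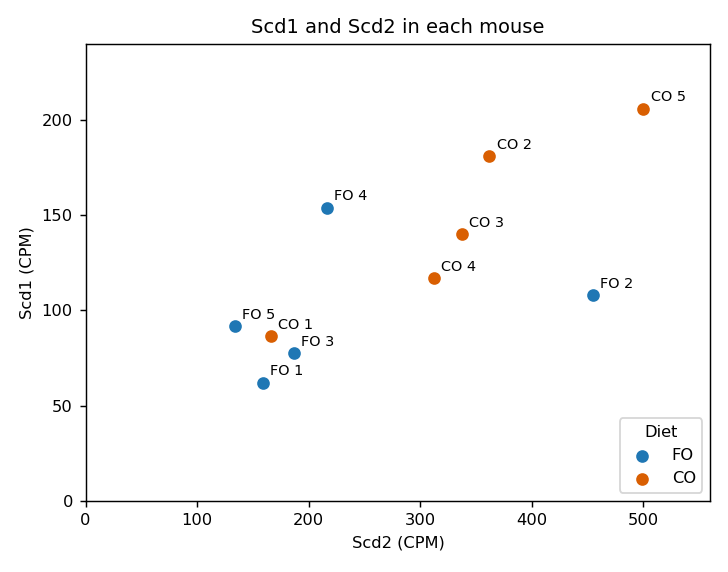
CPM of Scd2 (horizontal) and of Scd1 (vertical) in each of the 10 mice, coloured by diet and labelled with the mouse. Of the CO mice 4 lie at 312 CPM of Scd2 or above, FO mouse 2 sits to the right at 455 CPM with a Scd1 level of 108 CPM, and CO mouse 1 lies among FO mice.

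Across the 10 mice the levels of Scd1 and Scd2 went together (Pearson's r = 0.74, permutation p = 0.018; Spearman's rho = 0.76, permutation p = 0.015). Of the 10 pairs among the 5 genes that passed the count filter described with Fasn, none passed Benjamini-Hochberg adjustment, with adjusted values of 0.18 and 0.15 for this pair, and r for the other 9 pairs lay between -0.43 and 0.27. For Scd1 and Scd2, r was 0.58 without the 2 mice farthest from the median. Within diets r was 0.66 for this pair, 0.69 for Scd1 and Elovl5, and between -0.63 and 0.57 for the other 8 pairs, so Scd1 and Scd2 did not stand apart there. The points share their libraries and depth.

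Set against the alveolar type 2 cell markers, both desaturases had lower ratios in FO. The median over all 2438 genes tested was lower too, by -0.40 on the log2 scale. This scale, the counts of a gene per 100 counts of the 10 markers, was chosen after the data had been seen. Scd1 stood at 3.56, 2.88, 3.14, 7.27 and 3.94 in FO mice 1 to 5 and at 5.53, 10.1, 6.54, 10.7 and 6.85 in CO mice 1 to 5. Only FO mouse 4 reached into the CO range. The means were 4.16 ± 1.78 and 7.94 ± 2.30 (SD, n = 5 each), a difference of -0.97 on the log2 scale (exact two-sided permutation p = 0.0317). Without FO mouse 2 and CO mouse 5 this difference was -0.901 (exact permutation p = 0.0857), and it also missed 0.05 in 6 of the 10 tests that left out a single mouse.

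Scd2 stood at 9.11, 12.2, 7.59, 10.2 and 5.77 counts per 100 marker counts in FO mice 1 to 5 and at 10.6, 20.1, 15.7, 28.7 and 16.6 in CO mice 1 to 5. FO mouse 2, the highest of its group, lay above CO mouse 1 and below the other CO mice. The difference was -1.0 on the log2 scale (exact two-sided permutation p = 0.0159) and -1.14 without FO mouse 2 and CO mouse 5 (exact permutation p = 0.0286). With Sftpc taken out of the markers it was -0.915 over all mice (exact permutation p = 0.0317), but without those 2 mice as well the exact permutation p was 0.0857. Much of the table moved the same way on this scale. The median over all 2438 genes tested was -0.40, and 7.26% of them passed an exact permutation p of 0.05 in the lower direction against 0.041% in the higher. Of these genes 4.35% lay below Scd1 and 3.65% below Scd2. On the CPM scale 9 of the 10 markers had a positive log2 fold change, and none passed the edgeR test, Sftpc having the smallest p. In CPM the median log2 fold change of the 2438 genes was 0.0, with Scd1 at -0.56 and Scd2 at -0.54. The part of the markers in the Scd values was not tested.

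**Figure D3:**
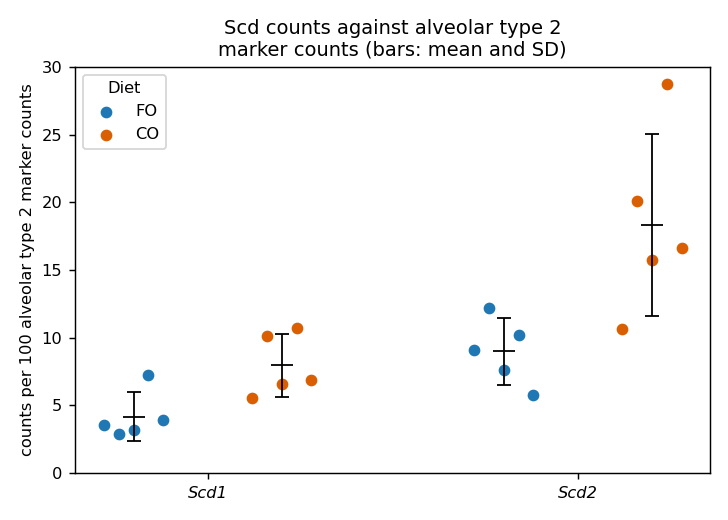
Counts of Scd1 and Scd2 per 100 counts of the 10 alveolar type 2 cell markers (vertical axis) in each mouse, with the mean and SD of each diet. FO mice lie from 2.88 to 7.27 for Scd1 and from 5.77 to 12.2 for Scd2, CO mice from 5.53 to 10.7 and from 10.6 to 28.7.

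Of the 2 enzymes of palmitate synthesis, Fasn had nearly equal levels in the diets and Acaca was close to the floor. Fasn (chromosome 11, 120805846 to 120824547, minus strand) read 35.7, 10.7, 12.9, 40.8 and 22.9 CPM in FO mice 1 to 5 and 39.9, 37.3, 24.1, 28.3 and 14.4 CPM in CO mice 1 to 5. The groups overlapped over most of their range, and each value rests on 2 to 33 counts. The means were 24.6 ± 13.4 CPM in FO and 28.8 ± 10.3 CPM in CO (SD, n = 5 each), and the log2 fold change was 0.00 with a 95% interval from -0.84 to 0.84 (edgeR p = 0.998, exact permutation p = 0.532). This interval still allows a ratio between 0.559 and 1.79. Of the 10 genes 5 passed edgeR's count filter (Scd1, Scd2, Fasn, Elovl1 and Elovl5), and 0 of these were called at an unadjusted p under 0.05, beside 2.91% of the 2438 genes that passed. DESeq2 also called 0 of the 5, beside 2.54% of these genes, and limma-voom called 2. The other 5 genes are given from a second edgeR fit, on all 14161 genes that had a count in any mouse. It called 4.15% of genes at that threshold, 0.00706% after adjustment, and 0 of these 5 either way.

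Acaca (chromosome 11, 84129672 to 84401651, plus strand), which supplies malonyl-CoA to Fasn and to the elongases, had 2, 4, 2, 6 and 1 counts in FO mice 1 to 5 and 0, 0, 2, 2 and 2 counts in CO mice 1 to 5. Only FO mice 2 and 4 reached the floor of 3 counts. Over all mice there were 15 counts in FO and 6 in CO, a ratio of 1.76 per count outside Rn45s with an exact 95% interval from 0.647 to 5.55 that covers counting error only. No difference was detectable at this depth (log2 fold change 0.94 ± 0.94 SE, edgeR p = 0.278, exact permutation p = 0.0952). Acaca also overlaps the protein-coding gene Gm11437 on the other strand and Gm37391 on its own strand. The effect of these overlaps on its counts was not tested.

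**Figure D4:**
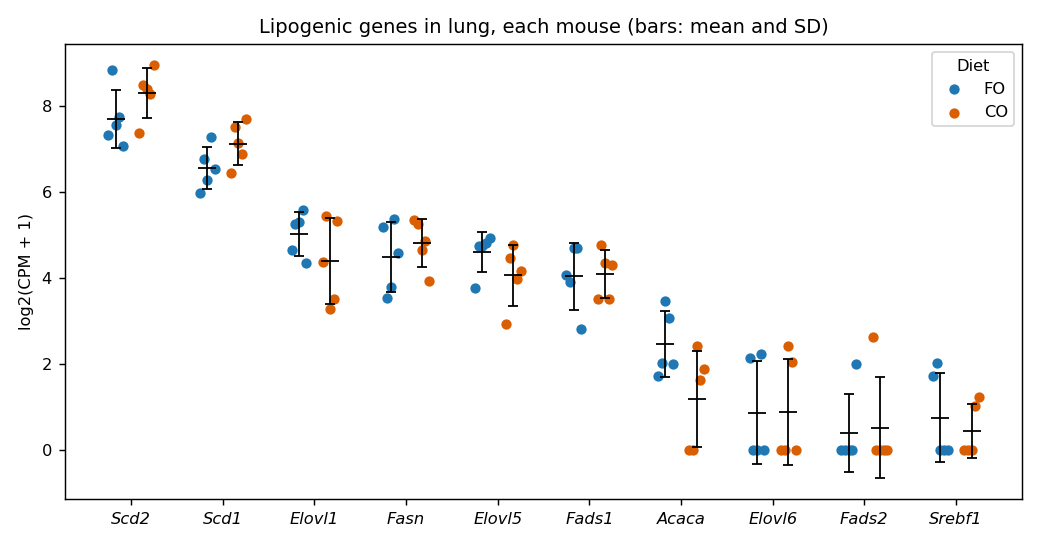
Level of each of the 10 genes in each mouse as log2(CPM + 1), by diet, with the mean and SD of 5 mice. The FO and CO points of every gene overlap, and Elovl6, Fads2 and Srebf1 are at 0 in 6 or more of the 10 mice.

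The elongases Elovl1 and Elovl5 had higher means in FO than in CO, without passing the test. Elovl1, which acts on very long saturated and monounsaturated chains, read 24.2, 37.4, 38.7, 46.9 and 19.6 CPM in FO mice 1 to 5 and 19.9, 42.6, 8.76, 10.5 and 39.4 CPM in CO mice 1 to 5. In CO the values fell into a low set of 3 mice and a high pair, mice 2 and 5, and the high pair lay within the FO range. The means were 33.4 ± 11.2 and 24.2 ± 15.9 CPM (SD, n = 5 each), with a log2 fold change of 0.57 ± 0.42 SE (edgeR p = 0.188, adjusted p = 0.998, exact permutation p = 0.31). Without CO mouse 5 it was 1.11 (edgeR p = 0.0138, adjusted p = 0.857, exact permutation p = 0.19), and without FO mouse 2 and CO mouse 5 it was 1.09 (edgeR p = 0.0154, adjusted p = 0.84, exact permutation p = 0.257). Both values are from fits without the count filter, since Elovl1 did not pass it there, and those fits called 5.31% and 4.15% of genes. Other choices lowered the estimate, to 0.34 without CO mouse 3, 0.29 without CO mouse 4, 0.31 with the Rn45s share as covariate and 0.08 with library size alone. Elovl1 (chromosome 4, 118428093 to 118432953, plus strand) overlaps Cdc20 on the other strand, and since the strand setting of the counting is not given in the sources used here, reads of the 2 genes may not be told apart.

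Elovl5, which lengthens polyunsaturated fatty acids between the steps of Fads2 and Fads1, read 12.7, 26.0, 25.8, 27.2 and 29.5 CPM in FO mice 1 to 5 and 6.65, 21.3, 26.3, 14.7 and 17.1 CPM in CO mice 1 to 5. FO mice 2 to 5 lay close together at the upper end, FO mouse 1 lay low, and CO mouse 3 lay inside the upper FO set. The log2 fold change was 0.40 ± 0.35 SE (95% interval -0.34 to 1.14, edgeR p = 0.27, exact permutation p = 0.151). Elovl6, the elongase that turns palmitate into stearate, had 6 counts in FO, all from mice 1 and 4, and 5 in CO, all from mice 3 and 4. That ratio per count outside Rn45s was 0.847 with an exact interval from 0.215 to 3.51 (counting error only), so a several-fold difference in either direction would not have been detectable.

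Fads1, the delta-5 desaturase, was measured at 16.0, 14.0, 25.1, 24.9 and 6.07 CPM in FO mice 1 to 5 and at 10.4, 26.2, 19.5, 10.5 and 18.9 CPM in CO mice 1 to 5. The CO values fell inside the FO range apart from CO mouse 2, which lay just above it. The means, 17.2 ± 8.02 CPM in FO and 17.1 ± 6.70 CPM in CO (SD, n = 5 each), nearly coincided, with a log2 fold change of 0.03 and a 95% interval from -0.86 to 0.93 (edgeR p = 0.94, exact permutation p = 0.968). Fads2, the delta-6 desaturase that starts the same path and lies near Fads1 on chromosome 19, had 1 count in FO mouse 5, 1 count in CO mouse 1 and 0 in the other 8 mice, so both diets were at or under the floor and no ratio is given.

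Srebf1 (chromosome 11, 60199089 to 60222581, minus strand) was close to the floor as well. FO mice 1 and 2 had 2 and 4 counts, CO mice 4 and 5 had 1 count each, and the other 6 mice had 0. The sums, 6 in FO and 2 in CO, gave a ratio of 2.12 per count outside Rn45s with an exact interval from 0.378 to 21.4 (counting error only), and the exact permutation p was 0.563. A difference in this regulator between the diets was therefore not detectable at this depth. Srebf1 also overlaps Rai1 on the other strand.

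**Figure D5:**
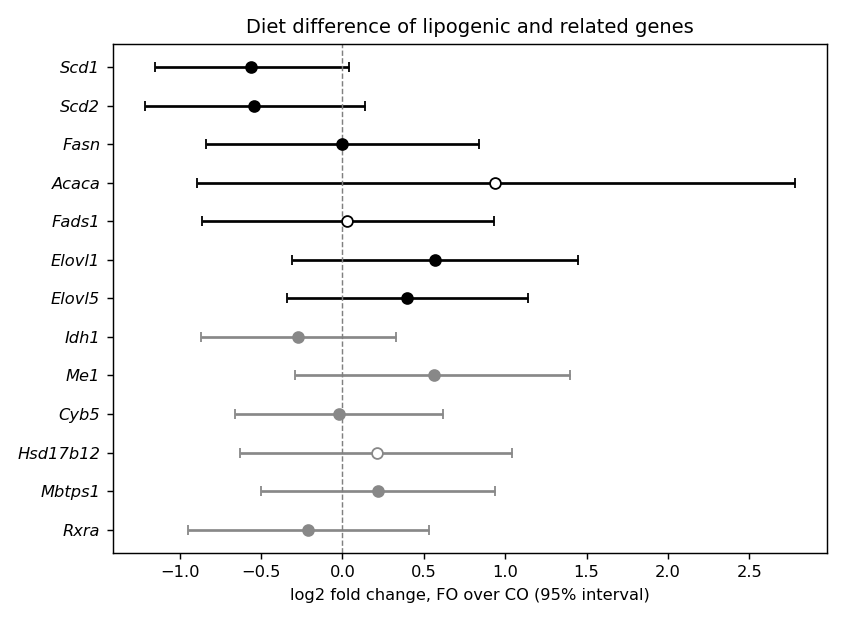
Log2 fold change, FO over CO, with its 95% interval (horizontal axis) for 7 of the 10 genes, leaving out Elovl6, Fads2 and Srebf1 (black), and 6 other genes of the pathway (grey); open circles are from the fit without the count filter. Each interval includes 0, and those of Scd1 (-1.15 to 0.04) and Scd2 (-1.21 to 0.14) reach least far above it among the black ones.

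By level per kilobase of transcript the 10 genes spread widely. CPM per kilobase was 40.7 in FO and 58.1 in CO for Scd2, 19.6 and 28.2 for Scd1, 16.3 and 11.3 for Elovl1, 8.18 and 5.81 for Elovl5, 4.97 and 4.93 for Fads1, 2.36 and 2.56 for Fasn, and 0.546 and 0.192 for Acaca. The order was taken from these same levels, so it is a description with no test. Scd2 lay above Scd1 in 10 of 10 mice, Scd1 above Elovl1 in 9, Elovl1 above Elovl5 in 8, Fads1 above Fasn in 8 and Fasn above Acaca in 9. Elovl5 lay above Fads1 in only 6 of 10 mice, so their order was not clear of the spread between mice, nor was that of Acaca, Fads2, Elovl6 and Srebf1, which were near the floor.

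Other genes of the pathway were read from 3 lists. Of 13 other genes for de novo synthesis and the supply of its precursors, 12 had counts, 9 with a positive and 3 with a negative log2 fold change, and Mcat had none. Of these, 4 passed the filter and 0 were called by edgeR in either fit. Pgd, which makes NADPH in the pentose phosphate path and is named after its values were seen, had the smallest p of the list, with a log2 fold change of 0.60 (95% interval -0.08 to 1.28) from 116 counts in FO and 57 in CO. Me1, malic enzyme, another source of NADPH, averaged 39.7 ± 17.5 CPM in FO and 27.1 ± 14.5 CPM in CO (SD, n = 5 each; log2 fold change 0.56, edgeR p = 0.184, exact permutation p = 0.23). Without FO mouse 2 its log2 fold change was 0.82 (edgeR p = 0.0397, adjusted p = 0.67, exact permutation p = 0.0952), beside 7.26% of genes called. Without FO mouse 2 and CO mouse 5 it was 0.88 (edgeR p = 0.0442, adjusted p = 0.999, exact permutation p = 0.143), beside 3.93% of genes called. It was lower under other choices, at 0.21 without FO mouse 4, 0.37 without CO mouse 4, 0.21 with the Rn45s share as covariate and 0.01 with library size alone. Idh1, which makes NADPH in the cytosol, averaged 46.4 ± 8.87 CPM in FO and 59.3 ± 20.0 CPM in CO (edgeR p = 0.357, exact permutation p = 0.246).

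Of 18 other genes of elongation and desaturation, 14 had counts, 8 with a positive and 6 with a negative log2 fold change, and 0 were called. Elovl3, Elovl4, Fads6 and Cyb5r3 had no count in any mouse, and Scd3 and Scd4 had 1 count each. Cyb5 (now Cyb5a), the cytochrome that passes electrons to the desaturases, averaged 49.9 ± 12.7 CPM in FO and 53.7 ± 21.2 CPM in CO, a log2 fold change of -0.02 (edgeR p = 0.959, exact permutation p = 0.746). Hsd17b12, a reductase of the elongation cycle, averaged 22.1 ± 9.93 and 18.5 ± 9.15 CPM (edgeR p = 0.627 without the count filter, exact permutation p = 0.563).

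Of 15 other regulators of lipogenesis, 12 had counts, 6 in each direction, and 0 were called, while Srebf2, Prkaa1 and Rnf139 had none. The gene annotation and strand setting of the counting are not given, so in these lists a gene with no count may still have RNA in the lung. Mbtps1, the protease that makes the first cut in SREBP, averaged 34.8 ± 5.65 CPM in FO and 30.4 ± 17 CPM in CO (exact permutation p = 0.587), and Rxra, the partner of the liver X receptors, averaged 23.1 ± 5.29 and 31.6 ± 20.0 CPM (exact permutation p = 0.508). Over the 10 genes the median log2 fold change was 0.03 beside 0.05 over the 14161 genes with any count. Adipocytes carry much RNA of these genes. Of 8 adipocyte markers 7 had counts and none passed the count filter, Lep was at 0, and their sum was from 5.73 to 55.3 CPM in FO and from 8.73 to 23.8 CPM in CO. The part of adipocytes in the values above was not tested.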

How the data were processed

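Lung RNA from 10 mice was sequenced as single-end reads. Per the labels and the study's methods the authors aligned reads to mm10 with STAR 2.4.0f1, sorted them with SAMtools 0.1.19 and counted them with HTSeq, and they deposited raw read counts per gene symbol, without normalization. The libraries were made with TruSeq RNA v2 or riboZero, and which mouse had which, the gene annotation and the strand setting are not given in the sources used here.

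Counts were tested with edgeR 4.0.16 (R 4.3.3, TMM, quasi-likelihood, default filter). The filter asked for 15 counts in total. It also asked for the CPM that 10 counts give in a library of median size, in as many mice as the smaller group held. Library size for this filter included Rn45s. The threshold was an unadjusted p under 0.05, as in the study, with Benjamini-Hochberg adjusted values beside it. Genes under the filter came from a fit of all 14161 genes that had a count. Single values used exact permutation tests (smallest p for 5 against 5, 0.0079) and correlations 100000 permutations. Per-length levels used exon lengths from GENCODE. CPM of genes under the filter and per-length levels are on the scale of that wider fit. In the gene lists, 6 genes were matched by an older symbol. All 10 members were named, and of each pathway list the genes with an unadjusted p under 0.05, or if none the 2 with the highest mean CPM. DESeq2 1.42.0 and limma 3.58.1 were alternatives, along with other scaling, filters, a replicate block, Rn45s as covariate and leaving out mice. The scripts were tested on simulated data. The rule for the members is a list of symbols that uses no measured value, but members and lists were chosen with earlier results of these data known. The study states no covariate, so the main fit used no pairing. Same-numbered mice had a mean correlation of -0.12 beside 0.03 for other pairs, but 5 pairs cannot tell whether they shared a batch. Other marker lists were also summed: alveolar macrophage markers lay from 61.0 to 106 CPM in FO and from 34.7 to 92.9 in CO, capillary endothelial from 241 to 641 and from 228 to 534, club cell from 1520 to 2570 and from 1320 to 3030, and cardiac muscle from 60.7 to 221 and from 20.7 to 154.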

Additional observations from a re-analysis of the deposited data

Results flagged for a closer look

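A mouse stood apart from the other 4 of its diet in 2 of 14 groups examined by Dixon's ratio, where chance gives 0.7. Scd2 was at 455 CPM in FO mouse 2 (ratio 0.744), the library with the highest Malat1 share. Elovl5 was at 12.7 CPM in FO mouse 1 (ratio 0.782), below the other FO mice. Neither gene passed the edgeR test over all mice.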

How the results depend on the processing

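Scd1 and Scd2 kept their sign in all 21 alternatives, Elovl1, Idh1 and Me1 in the 20 run for them, and Acaca in 19. Of 2438 genes tested 71 were called, against 36 with library size alone, 117 with limma-voom, 15 of 633 with at least 10 counts in every mouse, 106 of 3484 without Rn45s, 587 of 14161 with any count, and 54 to 154 without a single mouse, where 2075 to 3252 genes were tested. Of the 10 genes 0 were called, against 2 with limma-voom, 2 without FO mouse 2 and CO mouse 5, and 0 to 2 without a single mouse. Of the other pathway genes 0 were called, and 0 to 1 without a single mouse. Without FO mouse 2 and CO mouse 5, 1 was called, beside 72 of the 1830 genes that passed the filter. With the Rn45s share as covariate 1 was called, beside 55 of 2438. Estimates near 0 changed sign, and the cause was not tested. Fasn was -0.06 with DESeq2, 0.00 with RLE scaling, -0.63 with library size alone, -0.01 without Rn45s, -0.17 with the replicate block, -0.11 with the covariate, and -0.24 to 0.33 without a single mouse. Fads1 was -0.01 with DESeq2, -0.43 with library size alone, -0.12 with limma-voom, -0.21 with the covariate, and -0.14 to 0.23 without a single mouse. With library size alone, which moved the median of all genes to -0.55, Elovl5 was -0.07, Hsd17b12 -0.18 and Mbtps1 -0.30. With limma-voom Cyb5 was 0.05, Hsd17b12 -0.01 and Rxra 0.01. With any count Cyb5 was 0.02. Without a single mouse Cyb5 ran from -0.20 to 0.13 and Rxra from -0.38 to 0.03. The Scd1 share differed by -2.16 points from summed counts and by -1.38 to 4.25 without a single mouse. Without FO mouse 2 and CO mouse 5 the Scd1 share differed by 3.88 points, Idh1 was -0.09, Mbtps1 0.48 and Fads1 0.25. Scd1 per marker count was -0.901 without FO mouse 2 and CO mouse 5 and -1.19 to -0.85 without a single mouse.

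Each mouse ate 1 diet, so the replicate numbers do not mark shared animals. Same-numbered mice had a mean correlation of -0.12 over 5 pairs (-0.41 to 0.03), beside 0.03 over 20 other pairs (-0.40 to 0.66). Of 10 mice 0 correlated best with their own number. Whether same-numbered mice shared a batch cannot be told from 5 pairs. With the replicate block Scd1 was -0.54 and Scd2 -0.59 (edgeR, adjusted p = 0.997 for both).

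Depth limits the low genes. Between 45177 and 473254 counts per mouse fell outside Rn45s. For example, 3 counts read 3.16 CPM for Elovl6 in CO mouse 4 and 19.9 CPM for Elovl1 in CO mouse 1. Of the 10 genes, 4 had at most 2 mice at 3 counts or more in either diet.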
